A study of Mus musculus with 3 samples.

Results

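Gm42418, Gm26917 and Mir6236 are 3 of the 51912 genes listed for single-cell RNA sequencing (scRNA-seq) of mouse intestinal epithelium. They were chosen by symbol, and their unique molecular identifiers (UMIs, each a captured RNA molecule) were summed over all 25554 deposited cell barcodes after the barcodes were put in 3 bands by the share of UMIs from mitochondrial genes, whose symbols start with mt-. The bands held barcodes with up to 15%, with 15 to 25% and with above 25% of UMIs from these genes. Since the genes were picked for their rise with this share, their levels by band are a description and carry no test.

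The study asked what loss of the transcription factor Arid3a does to the intestinal epithelium. All mice carried VillinCreERT2, a Cre recombinase under the epithelial Villin promoter that tamoxifen switches on. The Arid3a cKO group also carried Arid3a fl/fl, the WT group did not, and both received tamoxifen at 8 to 10 weeks of age and were harvested 1 month after the first injection. Cells were sorted as DAPI-negative, Epcam+, CD45- and CD31-. There were 2 Arid3a cKO libraries and 1 WT library, so no comparison between genotypes could be tested. Where 3 values are given in a row, they are those of the Arid3a cKO 1, Arid3a cKO 2 and WT libraries, in that order.

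The libraries held 94614297 to 129243053 UMIs in 6845 to 11816 barcodes. The band above 25% took 60.3 to 72.0% of barcodes, and its barcodes had a median of 321 to 473 genes, against 4477 to 4969 genes in the band up to 15%. The 9 epithelial markers summed to 8620 to 9691 CPM (the UMIs of a gene scaled to one fixed total for all pools) in the lowest band and 2291 to 2682 CPM in the highest, and the 9 immune markers to at most 6.46 CPM in either. No file gives the viability of a barcode, so the bands are named here by mitochondrial share and not as damaged cells. Arid3a itself was at 0.59, 0.89 and 2.55 CPM in the band up to 15%, on 42, 52 and 161 UMIs, so it was lower in both Arid3a cKO libraries. Whether the counted 3' reads fall in the deleted part is not given in the sources used here. Any pair of libraries shared 11 to 18 barcode sequences.

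Ribosomal RNA (rRNA) is copied by RNA polymerase I in the nucleolus as a long precursor, from which spacers are cut away to leave the mature rRNAs of the ribosome. It makes up most of the RNA of a cell but has no long poly(A) tail, and libraries primed on poly(A) are meant to pass over it. Parts of the mouse genome that resemble rRNA genes carry gene models of their own, and reads from rRNA can be counted under those names.

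Gm42418 (ENSMUSG00000098178) is a single-exon long intergenic non-coding RNA gene at chr17:39846958-39848788 on the plus strand of GRCm38, in the GENCODE M21 annotation. Its first 1244 bases, 67.9% of its 1831, overlap the longer transcript of CT010467.1, which is annotated as rRNA on the minus strand. They are the exact reverse complement of that stretch. No rRNA sequence other than CT010467.1 was compared here, so the strand of the rRNA itself is not read from this annotation. A shorter CT010467.1 transcript, annotated as a pseudogene, spans chr17:39848103-39848827, so the CT010467.1 gene as a whole covers Gm42418. RefSeq lists Gm42418 as a synonym of Rn18s-rs5, a related sequence of the small-subunit rRNA. Gm26917 (ENSMUSG00000097971) is also a long intergenic non-coding RNA gene on the plus strand, at chr17:39843013-39846341, and ends 616 bases before Gm42418 and 11 bases before CT010467.1. Its longer transcript is 1 exon of 3329 bases, with 69.1% G and C. Only 0.249% of the 141767 annotated transcripts were as rich in G and C. Mir6236 (ENSMUSG00000098973) is annotated as a microRNA gene on chromosome 9, in no other annotated gene.

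**Figure D1:**
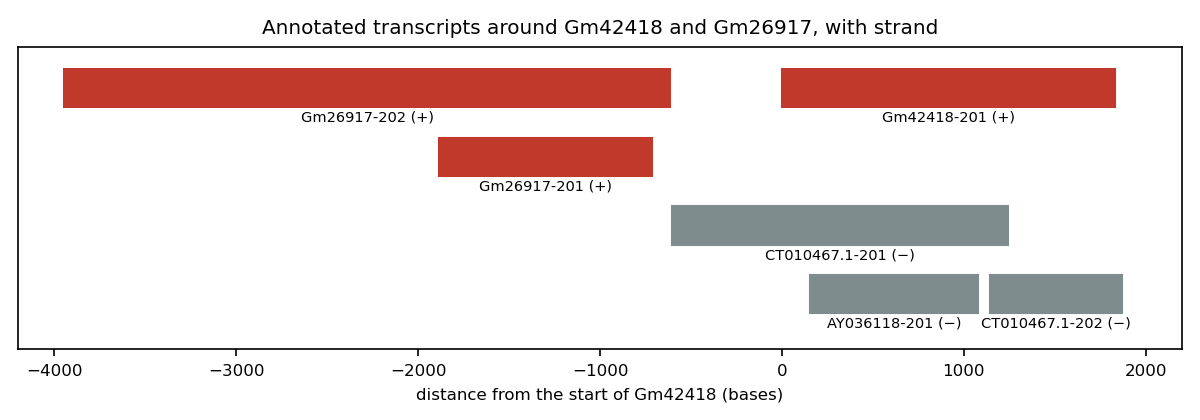
Annotated transcripts around Gm42418 and Gm26917, as bars from the first to the last base of each transcript with introns included, against the distance in bases from the start of Gm42418. The members are red and run on the plus strand, and the grey transcripts run on the minus strand, with the longer CT010467.1 transcript starting just after the end of Gm26917 and covering the first 1244 bases of Gm42418.

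The sequences below show where Gm42418 leaves the longer CT010467.1 transcript, the one annotated as rRNA. In the Gm42418 window (bases 1205 to 1284, chr17:39848162-39848241, plus strand), capitals mark the last 40 bases that are the complement of that transcript. The CT010467.1 line gives those 40 bases on the minus strand.
Gm42418: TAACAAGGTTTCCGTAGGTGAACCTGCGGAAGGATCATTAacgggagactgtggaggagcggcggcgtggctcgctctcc
CT010467.1: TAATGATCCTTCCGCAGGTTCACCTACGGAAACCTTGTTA

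Of the 1812 windows of 20 bases in Gm42418, 1225 were found in CT010467.1 on either strand. None of the 3310 windows of Gm26917 was found there or in Gm42418. For Gm26917 the name rRNA-like therefore rests on no sequence match made here. The comparison held no sequence of the whole rRNA precursor or of the large-subunit rRNA, so it cannot decide on a match to them. Mature microRNAs carry no poly(A) tail, so the UMIs counted to Mir6236 are no measure of the microRNA.

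Gm42418 was the second most abundant gene of every library, after the mitochondrial rRNA gene mt-Rnr2. It took 7.52, 7.10 and 9.03% of all UMIs, and each barcode held at least 1 of its UMIs. Gm26917 was at 720, 733 and 941 CPM, with a UMI in 77.8 to 81.4% of barcodes. Mir6236 was at 267 and 294 CPM in the Arid3a cKO libraries and 146 CPM in WT. The WT library thus had the highest overall level of Gm42418 and Gm26917 and the lowest of Mir6236.

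In barcodes with up to 15% mitochondrial UMIs, Gm42418 made up 3.21, 2.49 and 4.23% of UMIs. In the band 15 to 25% it made up 16.6, 13.6 and 16.4%, and above 25% it made up 16.3, 14.7 and 13.1%. The pooled share was thus 3.09 to 5.91 times higher in either upper band. Single barcodes overlapped widely between the bands, and in WT the upper quartile of barcodes in the lowest band (18.0%) was above the median of the highest (11.2%). As a mean over barcodes of their own CPM, Gm42418 in WT was at 120326 CPM up to 15% and 144935 CPM above 25%. The mean log2 ratio to the lowest band (CPM + 5) was 2.26 ± 0.27 (SD, n = 3 libraries) at 15 to 25% and 2.18 ± 0.49 above 25%, against 1.19 and 1.13 with the means over barcodes.

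Gm26917 started at 177, 139 and 215 CPM in the band up to 15%. It reached 894, 1425 and 1131 CPM at 15 to 25% and 2002, 1747 and 1729 CPM above 25%. Unlike Gm42418, it was higher in the highest band than in the middle band in each library. Its mean log2 ratio was 2.66 ± 0.56 and 3.35 ± 0.33 (SD, n = 3 libraries).

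Mir6236 rose from 76.4, 56.3 and 28.3 CPM through 368, 348 and 120 CPM to 709, 749 and 285 CPM. The mean log2 ratios were 2.21 ± 0.31 at 15 to 25% and 3.29 ± 0.29 above 25% (SD, n = 3 libraries). Each library rose at both steps, and the WT library stayed below both Arid3a cKO libraries in all bands. With each barcode thinned to 1000 UMIs and shallower barcodes left out, 13.8, 12.8 and 18.2% of barcodes held a Gm26917 UMI at up to 15% and 52.2, 47.7 and 50.01% above 25%. Without thinning these shares were 77.7, 73.3 and 73.7% and 82.8, 77.8 and 79.1%. For Mir6236 the thinned shares were 9.15, 7.91 and 3.80% and 43.8, 45.8 and 25.5%. Thinning left out 106, 79 and 482 barcodes in the lowest band and 226, 258 and 767 in the highest. The exact Poisson 95% intervals, which cover counting error only, were narrow for all 3 genes, the widest in relative terms being 113 to 127 CPM for Mir6236 in WT at 15 to 25%.

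All 3 genes passed the filter of a mean of at least 20 CPM, and all 3 were at least 2-fold higher in each library in both contrasts. Among the 4668 genes that passed, 181 (3.88%) did so at 15 to 25% and 35 (0.75%) above 25%. Since this contrast chose the members, nothing is read from their count. By the smallest of the 3 log2 ratios, a rank from the same contrast, Gm26917 was at rank 1 of 4668 genes at 15 to 25%, Gm42418 at rank 5 and Mir6236 at rank 6. Above 25%, Mir6236 was at rank 3, Gm26917 at rank 5 and Gm42418 at rank 24 of 4668.

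Finer bins of mitochondrial share separated the courses of the 3 genes. Gm42418 was at 1.51 to 2.40% of UMIs in barcodes below 5% and at 23.0 to 23.7% at 35 to 50%. At 50 to 70% it was at 25.5 and 25.3% in the Arid3a cKO libraries, their highest values, and at 20.5% in WT. It was only 7.20 to 7.62% in barcodes above 70%. Most UMIs of those last barcodes were mitochondrial, and of their other UMIs Gm42418 was 53.3, 53.8 and 56.9%.

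Gm26917 was highest at 35 to 50% in Arid3a cKO 1 (3057 CPM) and in WT (2858 CPM), and at 25 to 35% in Arid3a cKO 2 (2454 CPM). In barcodes above 70% it was back at 1198, 854 and 965 CPM. Mir6236 showed no such fall, and it was highest above 70% in each library, at 903, 1086 and 359 CPM. The 3 genes were thus higher in each next bin up to 25% in each library, and parted above it. On either side of the limit at 15%, Gm42418 was at 8.47 to 12.7% (10 to 15%) and 13.6 to 16.6% (15 to 25%), so the limit cut a gradual rise.

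**Figure D2:**
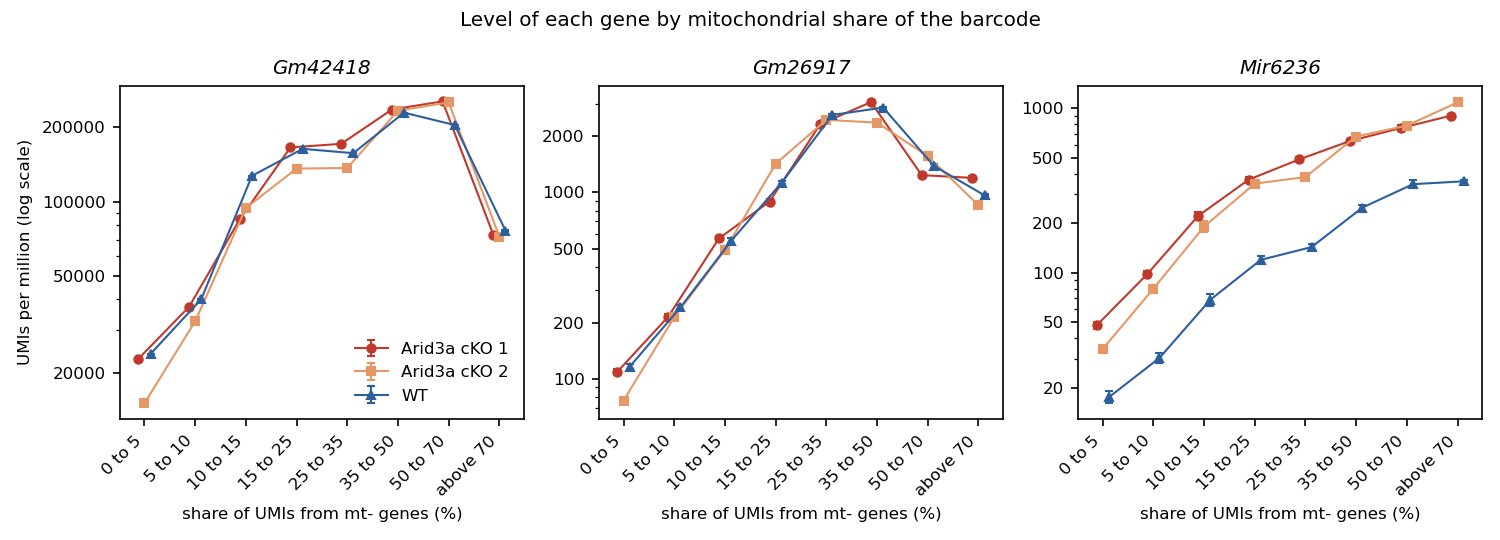
Pooled level of each gene in CPM (log axis) in 8 bins of the mitochondrial share of a barcode, with a line for each library and exact Poisson 95% intervals as bars, mostly hidden by the points. Gm42418 and Gm26917 rise and then fall, with the 3 libraries close together, while Mir6236 rises in every bin and the WT library lies below both Arid3a cKO libraries.

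The make-up of the UMIs changed with these genes. In the band up to 15%, Gm42418, Gm26917, Mir6236 and the mitochondrial rRNAs mt-Rnr1 and mt-Rnr2 summed to 5.25, 3.98 and 6.69% of UMIs. Above 25% the same 5 genes summed to 58.5, 53.6 and 62.5%. The mitochondrial share that defines the bands is itself mostly rRNA in the highest band, where mt-Rnr1 and mt-Rnr2 gave 68.7 to 78.6% of mitochondrial UMIs, against 33.8 to 42.6% in the lowest.

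**Figure D3:**
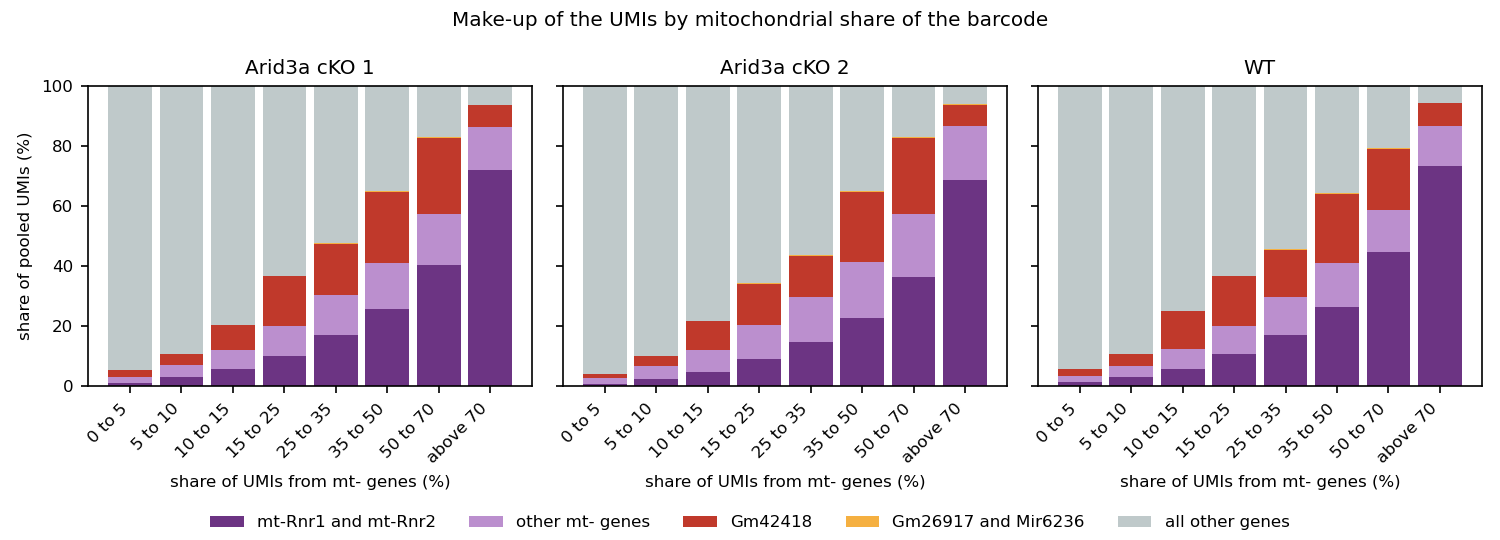
Stacked share of pooled UMIs (%) in 8 bins of the mitochondrial share of a barcode, in a panel for each library. Gm42418 (red) grows from 1.51 to 2.40% below 5% to 20.5 to 25.5% at 50 to 70% and shrinks above 70%, where the mitochondrial rRNAs (dark purple) fill most of the bar. The band of Gm26917 and Mir6236 is too thin to see.

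Because a rise of one gene lowers the share of all others, the ratios between members were also taken. For every 1000 Gm42418 UMIs there were 5.51, 5.58 and 5.08 Gm26917 UMIs in the band up to 15%, and 12.3, 11.9 and 13.2 above 25%. There were 2.38, 2.26 and 0.67 Mir6236 UMIs at up to 15% and 4.35, 5.09 and 2.17 above 25%. Both ratios were higher above 25% in each library, so the 3 genes did not rise in one proportion. In the finer bins the ratios did not rise steadily. For every 1000 Gm42418 UMIs, Mir6236 was at 2.97, 3.10 and 1.69 at 50 to 70% and 12.3, 15.1 and 4.72 above 70%. Gm26917 was at 13.6, 17.9 and 16.6 at 25 to 35% and 4.85, 6.20 and 6.79 at 50 to 70%. Counts of UMIs are not scaled to transcript length, and these ratios describe captured molecules.

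With mitochondrial UMIs left out of the total, Gm42418 was 37.5, 33.7 and 35.02% of the UMIs that remained above 25%, against 3.37, 2.60 and 4.49% in the lowest band. On that scale 396 of 4648 genes (8.52%) were at least 2-fold higher above 25% in each library and 401 (8.63%) at 15 to 25%, all 3 members among both. With Gm42418 left out of the total too, 1188 of 4647 (25.6%) and 853 (18.4%) were, Gm26917 and Mir6236 among both, and 630 (13.6%) and 303 (6.52%) were at least 2-fold lower, neither member among them. The median log2 ratio of all genes above 25% was -1.16 over all UMIs, -0.14 over non-mitochondrial UMIs and 0.40 with Gm42418 left out too.

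The rise was already present among cells that pass common limits. Of the barcodes with at least 1000 genes and up to 15% mitochondrial UMIs, 132 of 2134, 121 of 1550 and 179 of 1910 had above 10% of their UMIs from Gm42418 (6.19, 7.81 and 9.37%), a limit set after its values were seen. The highest cell had 77.0%. Cells above that limit had a median of 8882 to 12655 UMIs and 8.07 to 10.7% mitochondrial UMIs, against 30853 to 36826 UMIs and 3.95 to 5.29% in the rest. High Gm42418 thus went with fewer UMIs and a higher mitochondrial share, and the part of each was not tested.

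In the band up to 15%, the barcodes that the filter on genes removed had a higher share of Gm42418. There, barcodes with fewer than 1000 genes numbered 168, 134 and 545. Gm42418 made up 22.9, 21.0 and 29.0% of their UMIs, against 3.16, 2.44 and 4.06% in the barcodes with more genes. Gm26917 was at 1481, 825 and 1051 CPM in the barcodes with few genes and Mir6236 at 663, 717 and 414 CPM. These barcodes were 22.2% of the band in WT and 7.30 and 7.96% in the Arid3a cKO libraries, but held only 1.88 to 4.72% of its Gm42418 UMIs. Most barcodes with fewer than 1000 genes lay above 25% (2580, 3113 and 6063). There Gm42418 was at 16.9, 16.0 and 12.2% in them and 15.6, 13.2 and 14.5% in the barcodes with more genes, with WT in the other direction. Gm26917 was lower in the barcodes with few genes of that band, at 1399, 1010 and 966 CPM against 2668, 2622 and 2897 CPM. Mir6236 was higher in them in each library, at 893, 1004 and 369 CPM against 505, 446 and 156 CPM.

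Across barcodes with at least 1000 genes, the share of Gm42418 went with the mitochondrial share (Spearman's rho 0.73, 0.69 and 0.62 over 4071, 3627 and 5116 barcodes) and against the number of genes (rho -0.80, -0.81 and -0.75). Over all barcodes the former was 0.33, 0.24 and -0.11, and 0.78, 0.75 and 0.69 with Gm42418 as a share of non-mitochondrial UMIs. Gm42418 and Mir6236 correlated at 0.71, 0.65 and 0.42 and Gm42418 and Gm26917 at 0.57, 0.53 and 0.49 in barcodes with at least 1000 genes. Gm26917 and Mir6236 correlated at 0.41, 0.35 and 0.19 there. Over all barcodes these pairs, in the same order, were at 0.48, 0.37 and 0.13, at 0.32, 0.26 and 0.08, and at 0.19, 0.06 and -0.03. These values describe cells that share a library and a UMI total.

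Cells that passed both limits were clustered with the members left out, and clusters were named by markers as -like classes. Gm42418 was higher in enterocyte-like cells, the absorptive cells of the villus, than in the dividing crypt cells. Pooled, it was 4.51, 4.15 and 6.78% of the UMIs of enterocyte-like cells. Intestinal stem cell (ISC)-like cells were at 2.40, 1.49 and 2.56%, and transit-amplifying (TA)-like cells, their fast-dividing progeny, at 1.79, 1.08 and 1.91%. The order of these 3 classes was the same in each library. Medians over cells kept the order with smaller gaps, at 3.49, 2.48 and 3.73% in enterocyte-like, 2.40, 1.41 and 2.60% in ISC-like and 1.87, 1.00 and 2.00% in TA-like cells. Above 10% were 67, 80 and 100 enterocyte-like cells, or 7.82, 12.5 and 13.3% of the class. Against ISC- and TA-like cells pooled, pooled enterocyte-like cells were 2.12, 3.26 and 3.01 times higher, a mean log2 ratio of 1.46 ± 0.33 (SD, n = 3 libraries).

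Mir6236 followed the same order. It was at 113, 92.7 and 37.1 CPM in enterocyte-like cells, at 51.0, 26.6 and 17.2 CPM in ISC-like cells and at 38.7, 25.3 and 15.3 CPM in TA-like cells. Between ISC- and TA-like cells the Poisson intervals overlapped in Arid3a cKO 2 and in WT. The mean log2 ratio of enterocyte-like to ISC- and TA-like cells was 1.29 ± 0.34. For Gm26917 it was 0.26 ± 0.14 (SD, n = 3 libraries), and in WT its 204 CPM in enterocyte-like cells stood beside 200 CPM in ISC-like cells.

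Enterocyte-like cells also had a higher median mitochondrial share, 5.41 to 6.59%, than ISC-like (3.30 to 5.21%) and TA-like cells (3.18 to 4.26%). Within the bin below 5%, Gm42418 was at 3.01, 2.25 and 2.92% in enterocyte-like cells and 2.05, 1.21 and 1.96% in ISC-like cells. At 10 to 15% it was at 10.7, 11.6 and 17.7% against 3.92, 2.71 and 4.90%, with only 7 ISC-like cells in that bin of Arid3a cKO 2. The difference between these classes was thus present in each of these bins in each library.

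Paneth-like cells, which secrete antimicrobial peptides, were lowest for all 3 genes in each library, with Gm42418 at 0.84, 0.42 and 0.82%. They had the deepest barcodes, with medians of 119501 to 177412 UMIs, and the lowest mitochondrial share, 0.16 to 0.68%. Tuft-like cells, a chemosensory type, were highest for Gm26917, at 1805, 541 and 1575 CPM in 46, 27 and 49 cells, with a median mitochondrial share of 5.51 to 9.15% and only 10053 to 17507 UMIs per cell. Their pooled Gm42418 was 5.67, 3.53 and 5.99%, above enterocyte-like cells in Arid3a cKO 1 only. Their medians over cells, 7.62, 3.99 and 8.69%, were above those of enterocyte-like cells in each library. Mir6236 was at 120, 71.5 and 44.8 CPM in them. Goblet-like cells, which secrete mucin, were at 3.46, 1.97 and 3.34% for Gm42418 and hormone-secreting enteroendocrine-like cells at 3.56, 3.18 and 4.74%, and these 2 classes overlapped over the libraries. Medians over enteroendocrine-like cells were 4.39, 3.78 and 4.43%, also above those of enterocyte-like cells. Above 10% Gm42418 were 39.1, 14.8 and 38.8% of tuft-like and 19.0, 32.4 and 18.0% of enteroendocrine-like cells. Both shares were above the enterocyte-like share in each library. The part of depth and of mitochondrial share in the order of the classes was not tested.

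Of the 12 clusters, 1 of 748 cells led by Ccl20, Edn2 and Krt19 stayed unnamed, with Gm42418 at 2.61, 1.52 and 2.66%. A cluster of 58 cells counted as enterocyte-like had Ifit3 and Isg15, which respond to interferon, among its leading genes, and a cluster of 73 cells counted as enteroendocrine-like held immune genes such as Lcp1 and Hcst beside Ghrl and Gip.

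**Figure D4:**
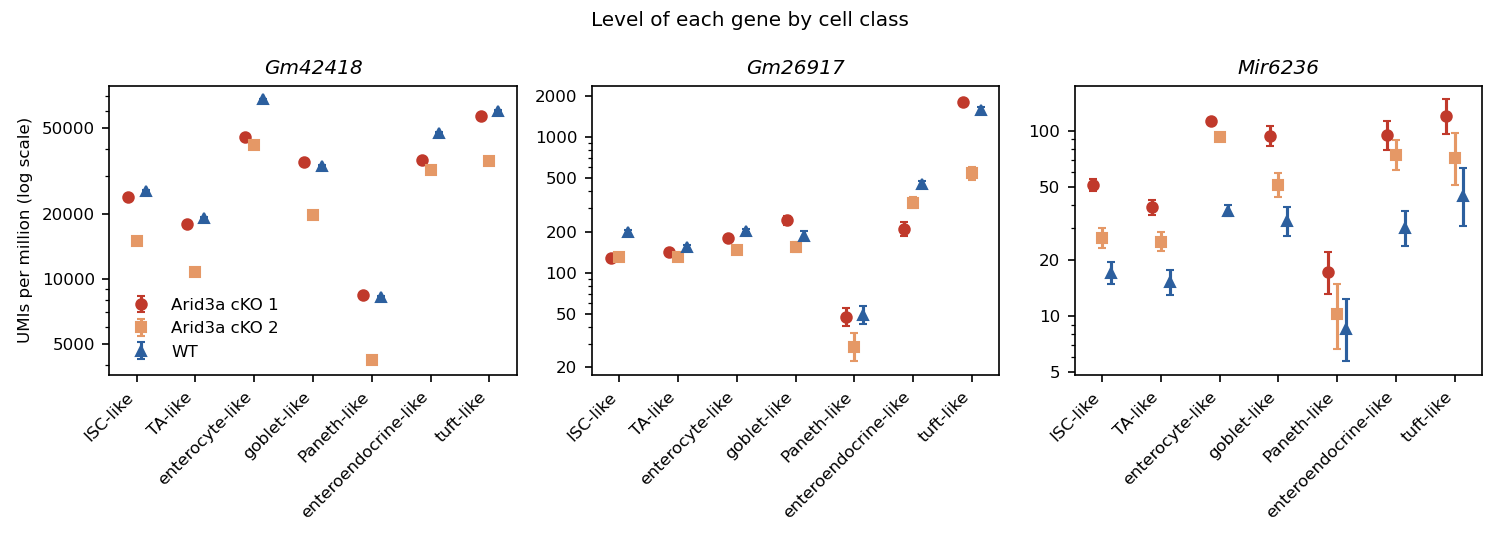
Pooled level of each gene in CPM (log axis) in 7 cell classes, with a point for each library and exact Poisson 95% intervals as bars. Paneth-like cells are lowest for all 3 genes, Gm42418 and Mir6236 are higher in enterocyte-like than in ISC- and TA-like cells, and Gm26917 is highest in tuft-like cells. For Gm42418 and Mir6236, tuft-like and enterocyte-like cells overlap over the libraries.

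The genotype comparison asked whether the genes differed between Arid3a cKO and WT mice, and with 1 WT library it is a comparison of libraries. Mir6236 was higher in both Arid3a cKO libraries than in WT in all bands. The ratio to WT was 2.69 and 1.99 in the band up to 15%, 3.07 and 2.91 at 15 to 25%, and 2.49 and 2.63 above 25%. Over the 8 finer bins the ratio ran from 1.97 to 3.42 and was above 1 for both libraries throughout. It was also above 1 in each cell class, at 3.06 and 2.50 in enterocyte-like and 2.97 and 1.55 in ISC-like cells. In Paneth-like cells it was 2.01 and 1.19 on 26 to 62 UMIs a library, and the intervals of Arid3a cKO 2 (6.68 to 14.98 CPM) and WT (5.70 to 12.4 CPM) overlapped. As a mean over barcodes of their own CPM in the band up to 15%, which gives shallow barcodes equal weight, the mean log2 ratio of Mir6236 was 0.17 in place of 1.08, and 1.35 in barcodes with at least 1000 genes.

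At least 2-fold higher CPM (+ 5) in both Arid3a cKO libraries was seen for 4 of 4668 genes (0.0857%) in the band up to 15%, where Mir6236 fell short with a log2 ratio of 0.88 for Arid3a cKO 2. It passed at 15 to 25%, with 5 genes in all (0.107%), and above 25%, with 6 (0.129%). In all 3 bands 3 genes passed (0.0643%), namely Gm28438, Akp3 and S100g, and none was a member. At least 2-fold lower in both were 11 (0.236%), 11 (0.236%) and 9 genes (0.193%) in the 3 bands, none of them a member. Gm28438 was at 94.4, 73.1 and 0.063 CPM at up to 15%, and mt-Nd3, a mitochondrial gene singled out after its values were seen, was at 8.30, 10.3 and 275 CPM. The part of these in the result was not tested, and a difference between the mice other than Arid3a cannot be told apart from the genotype.

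Gm42418 was lower in both Arid3a cKO libraries in the band up to 15%, at 0.76 and 0.59 times WT, a mean log2 ratio of -0.58. In its finer bins it was at 0.95 and 0.63 times WT below 5%, 0.93 and 0.81 times at 5 to 10%, and 0.67 and 0.74 times at 10 to 15%. By class it was at 0.67 and 0.61 times in enterocyte-like and 0.94 and 0.58 times in ISC-like cells. Arid3a cKO 1 was slightly above WT in goblet-like and Paneth-like cells (1.04 and 1.03 times), and Arid3a cKO 2 was below WT in each class. Gm42418 was close to WT at 15 to 25% (1.01 and 0.83 times) and higher in the pooled band above 25% (1.24 and 1.12 times). Within that band it was at 1.09 and 0.87 times WT at 25 to 35% and 0.96 and 0.94 times above 70%. Gm26917 was at 0.82 and 0.65 times WT in the lowest band, 0.79 and 1.26 times at 15 to 25%, and 1.16 and 1.01 times above 25%. Over all UMIs neither gene kept one direction over the bands, unlike Mir6236. Over non-mitochondrial UMIs the mean log2 ratios in the 3 bands were -0.60, -0.12 and 0.02 for Gm42418 and -0.46, -0.0011 and -0.11 for Gm26917, so neither was clearly higher above 25% on that scale. Mir6236 was at 1.07, 1.55 and 1.13. In the bin below 5%, Gm26917 differed from WT by log2 ratios of -0.08 and -0.57, and at 10 to 15% by 0.04 and -0.16. Both ratios share the WT library.

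**Figure D5:**
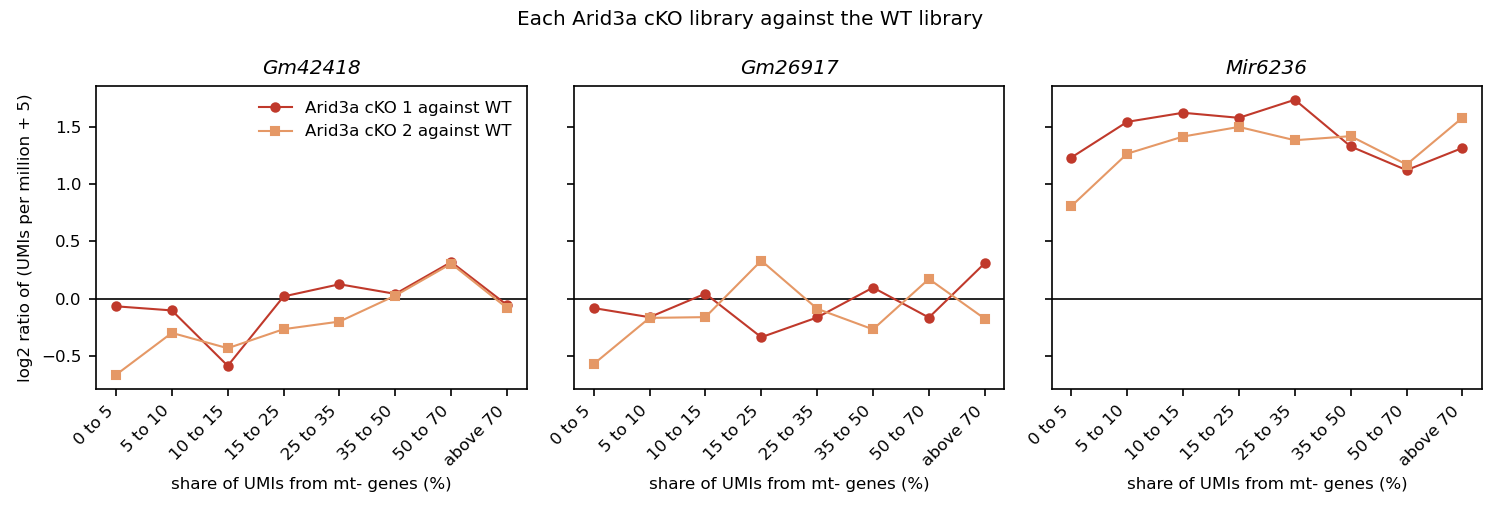
Log2 ratio of CPM (+ 5) of each Arid3a cKO library to the WT library in 8 bins of the mitochondrial share of a barcode. Mir6236 lies above 0 in every bin for both libraries, between 0.81 and 1.74, while Gm42418 and Gm26917 cross 0.

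The genes whose levels were most like those of the members were named over 24 points, the 8 bins in 3 libraries, by Spearman correlation with the summed log2 CPM of the members. Lars2, a mitochondrial leucyl-tRNA synthetase gene of the nuclear genome, came first (rho 0.96), followed by mt-Cytb (0.95), mt-Nd4 (0.94), mt-Nd1 (0.94) and CT010467.1 (0.92). Those after them were mt-Nd5, mt-Co2, mt-Nd2, mt-Atp6 and mt-Co3 (0.915 to 0.895). The points share 3 libraries, and the mitochondrial genes set the bins. Among themselves the members correlated less, at 0.84 for Gm42418 with Gm26917, 0.62 for Gm42418 with Mir6236 and 0.65 for Gm26917 with Mir6236.

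Lars2 was at 757, 635 and 788 CPM in the band up to 15% and 8219, 8560 and 6244 CPM above 25%, a mean log2 ratio of 3.38 ± 0.38 (SD, n = 3 libraries). CT010467.1, on the strand opposite to Gm42418, was at 363, 267 and 368 CPM and 1226, 1035 and 1030 CPM. It gave 8.71 to 11.3 UMIs for every 1000 of Gm42418 in the lowest band and 7.03 to 7.87 in the highest. AY036118, which lies within both on the minus strand, was listed at 0 UMIs in each library. How the counting step treated reads from these overlapping genes is not given in the sources used here, so the split among them is uncertain.

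Of 10 listed genes that are related to rRNA or are abundant non-coding RNAs, 8 were among the genes counted. The symbols Rn45s and Rn18s-rs5 were not, so no UMIs could be listed under them. The filter was passed by 2 genes, Lars2, which codes for a protein, and Rn7sk, a small nuclear RNA that controls transcription elongation. Rn7sk was at 86.5, 59.1 and 83.6 CPM in the lowest band and 178, 299 and 192 CPM above 25%. It fell just short of 2-fold in Arid3a cKO 1 on the CPM + 5 scale. Its mean log2 ratio was 1.88 ± 0.59 at 15 to 25% and 1.46 ± 0.68 above 25% (SD, n = 3 libraries), and at 15 to 25% in Arid3a cKO 2 its 2.57 was above the 2.45 of Gm42418. Of 6 nuclear long non-coding RNAs, 2 passed, Malat1 and Neat1, which are kept in the nucleus. Both were at least 2-fold higher in each library at 15 to 25% (mean log2 ratios of 1.80 and 1.29), and neither was above 25% (1.14 and 0.50). Over non-mitochondrial UMIs Malat1, Neat1 and Rn7sk all passed above 25%, at 2.34, 1.69 and 2.65.

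Genes for making ribosomes were lower where the members were higher. Of 82 cytosolic ribosomal protein genes, 82 were at least 2-fold lower above 25% in each library, with a median log2 ratio of -3.98, against 2405 of 4668 genes (51.5%) and a median of -1.16 over all. Of 14 genes of rRNA synthesis and processing, 12 were lower, with a median of -2.69. Npm1, a nucleolar chaperone, had a mean log2 ratio of -4.06 and Fbl, the methyltransferase that modifies rRNA, -2.99. Ubtf, which binds rRNA genes for RNA polymerase I, and Taf1d, a subunit of the factor that recruits that polymerase, did not pass, at -1.04 and -0.46. Over non-mitochondrial UMIs, 11 of the 14 and 82 of the 82 were lower, against 1103 of 4648 genes (23.7%). With Gm42418 left out too, 8 of the 14 were lower and 1 higher, and 79 of the 82 were lower, against 13.6% of all genes. Markers of crypt and secretory cells moved with them over all UMIs, with 4 of 4 ISC, 9 of 9 TA and 7 of 7 goblet markers lower above 25% (medians of -2.94, -3.18 and -3.59), while 8 of 20 enterocyte markers were lower with a median of -0.39. Over non-mitochondrial UMIs, 3 of 4 ISC, 8 of 9 TA and 4 of 7 goblet markers were lower. Of the 20 enterocyte markers, 5 were then higher and 1 lower (median of 0.80), against 8.52% of all genes higher. With Gm42418 left out too, 11 of the 20 were higher and 0 lower (median of 1.37), against 25.6% of all genes higher. The part of the cell types in the result was not tested.

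Of 17 immediate early and heat shock genes, 0 were at least 2-fold higher in each library above 25% and 11 were lower, with a median log2 ratio of -1.36, near the 0.75% higher, 51.5% lower and median of -1.16 of all genes. Jun and Fos were at -0.82 and -1.49. Of 8 cell death and p53 genes, 0 were higher and 3 were lower (Bax, Casp8 and Cdkn1a). Over non-mitochondrial UMIs, 0 of the 17 passed in either direction, and of the 8 Mdm2, the ubiquitin ligase of p53, was higher at 1.24 and Bax, which opens the mitochondrial membrane, lower at -1.78. With Gm42418 left out too, the medians of the 2 lists were 0.32 and 0.89, beside 0.40 over all genes, and 2 of the 8 were higher.

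The 5 genes with the highest smallest ratio above 25%, members aside, were mt-Rnr2, mt-Rnr1, Lars2, mt-Tn and mt-Atp8, with mean log2 ratios of 2.95 to 4.50. The 5 lowest, Gm14851, AY761184, Defa29, Defa30 and Defa24, are defensin-family genes of Paneth cells, with mean log2 ratios from -5.07 to -4.76. Paneth-like cells were also the class in which the members were lowest.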

How the data were processed

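Single-cell 3' UMI counts of 3 libraries (2 Arid3a cKO, 1 WT) were used as the authors deposited them, as raw counts per gene and barcode from Cell Ranger, unnormalized. The mouse genome build of the counting is not given in the sources used here, nor is the handling of overlapping genes. UMIs were pooled per library and mitochondrial band and scaled to CPM. Ratios are log2 of CPM + 5, for genes with a mean of at least 20 CPM, and a gene was called at 2-fold in each library. With 1 WT library no test was run. Intervals are exact Poisson at 95%. Cells with at least 1000 genes and up to 15% mitochondrial UMIs were integrated and clustered with Seurat 5.3.0 in R 4.3.3 (30 components, resolution 0.3). Doublets were not removed. The rule for calling genes was tested on simulated data. edgeR 4.0.16 gave TMM factors for an alternative. The genes named were the members, listed genes of rRNA, ribosome, stress and death, the 10 most like the members, and the 5 with the largest smallest ratio in each direction. Gm28438, Akp3, S100g, mt-Nd3 and CT010467.1 beyond its place among the 10 were added after values were seen. The members and lists were chosen with earlier results of these data known. Sequences came from GENCODE M21, and that of Mir6236 is not reported here. Alternatives changed the total, limits, filters, pooling and depth, and left out libraries.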

Additional observations from a re-analysis of the deposited data

Results flagged for a closer look

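Gm42418 was lower than WT in both Arid3a cKO libraries in barcodes with up to 15% mitochondrial UMIs and higher in both above 25%, and its log2 ratio to WT differed by 0.82 between the bands. For Gm26917, which went the same way, the difference was 0.56. Neither difference was tested, since there was 1 WT library. Gm42418 was at 1.09 and 0.87 times WT at 25 to 35% and 1.03 and 1.02 times at 35 to 50%. It was at 1.25 and 1.24 times at 50 to 70% and 0.96 and 0.94 times above 70%. In the same bins Gm26917 was at 0.89 and 0.94, 1.07 and 0.83, 0.89 and 1.13, and 1.24 and 0.89 times. Neither gene kept one direction over these bins. Above 70% lay 1541, 1891 and 4197 barcodes, of 4128, 4651 and 8503 above 25%, and the part of this was not tested. Over non-mitochondrial UMIs, the mean log2 ratios above 25% were 0.02 for Gm42418 and -0.11 for Gm26917.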

How the results depend on the processing

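The ratios between bands, between classes and, at up to 15%, between genotypes kept their direction under the alternatives run. Above 25%, Gm26917 in Arid3a cKO against WT was at 0.11 over all UMIs and -0.11 over non-mitochondrial UMIs. Against the band up to 15%, the log2 ratio at 15 to 25% moved for Gm42418 to 1.83 without the 5% of barcodes with most UMIs, 1.19 as a mean over barcodes of their own CPM and 1.63 with thinning. For Mir6236 these were 1.86, 1.01 and 1.73. Above 25%, over non-mitochondrial UMIs, Gm42418 was at 3.38, Gm26917 at 4.55 and Mir6236 at 4.49. As a mean over barcodes they were at 1.13, 2.17 and 1.92, and with thinning at 1.56, 2.66 and 2.8. In barcodes with at least 1000 genes Gm26917 was at 3.96 and Mir6236 at 2.66. With limits of 10 and 30% Mir6236 was at 3.64, and without the 5% of barcodes with most UMIs at 2.94. With bands of the same size by mitochondrial protein-coding UMIs, chosen after seeing the data, Gm42418, Gm26917 and Mir6236 were at 1.59, 1.92 and 1.72 at 15 to 25%, and Gm26917 at 2.53 above it. The 181 genes called at 15 to 25% became 401 over non-mitochondrial UMIs, 99 without the 5% of barcodes with most UMIs and 26 with the protein-coding bands. The 35 called above 25% became 396, 238 with at least 1000 genes and 54 with the protein-coding bands. The number of genes passing the filter also changed with these settings, so the counts are not shares of one total. All 3 members were called under each of these settings. Since the contrast between bands chose the members, nothing is read from this. The cause of these shifts was not tested.

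In Arid3a cKO against WT, Gm42418 moved from -0.58 to -0.30 with no limit on mitochondrial share and to -1.14 as a mean over barcodes. Mir6236 moved from 1.08 to 0.17 as a mean over barcodes, and was at 1.35 when that mean was taken in barcodes with at least 1000 genes, chosen after seeing the data. Between classes, Gm26917 moved from 0.26 to 0.43 as a mean over cells.

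Leaving out each library gave 2.16 to 2.41, 2.34 to 2.84 and 2.05 to 2.36 for Gm42418, Gm26917 and Mir6236 at 15 to 25%, and 1.99 to 2.45, 3.22 to 3.54 and 3.13 to 3.38 above 25%. The count of genes ran from 181 to 366 at 15 to 25%, the highest without Arid3a cKO 1, and from 35 to 48 above it. Against WT the ranges were -0.77 to -0.40, -0.61 to -0.28 and 0.88 to 1.29. No paired analysis was possible because WT had 1 library and the groups share only replicate number 1.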
